A study of Mus musculus with 4 samples.

Results

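Wnt signalling genes were examined in mouse embryonic fibroblasts (MEFs), primary connective tissue cells grown from embryos. The genes were the protein-coding rows of the count table whose symbols begin with Wnt, Fzd, Sfrp or Dkk followed by a digit, together with Lrp5, Ctnnb1, Axin1, Axin2, Lef1, Tcf7, Tcf7l1, Tcf7l2, Wif1, Ror1, Ror2 and Ryk. This gave 49 of the 55487 genes in the table, namely 19 ligands, 14 receptors, 9 secreted inhibitors and 7 intracellular members. The rule itself uses gene names and no measured value.

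The MEFs were wild-type, from C57BL/6J embryos, and, per the labels, at passage 2, whereas the study's text gives a later passage. They were cultured for 24 h with recombinant pigment epithelium-derived factor (PEDF) at 100 ng/mL, or without it (control). PEDF is a secreted protein of the serpin family, and the recombinant protein had been purified from mammalian cells. Each treatment was sequenced in 2 experiments, and each experiment used MEFs from its own embryos, so that there were 4 libraries. Control and PEDF libraries of one experiment share the embryos, and the embryos, the day and the handling of an experiment cannot be told apart. The number of embryos behind each MEF preparation is not given in the sources used here.

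Wnt ligands are secreted lipid-modified proteins that bind Frizzled (Fzd) receptors. With the co-receptors Lrp5 and Lrp6 they stabilise β-catenin, the product of Ctnnb1, which otherwise is marked for destruction by a complex built on Axin1 and Axin2. β-catenin then acts on target genes with the Tcf/Lef DNA-binding proteins. Other ligands, such as Wnt5a, signal largely without β-catenin through Ror1, Ror2 and Ryk. The Sfrp proteins and Wif1 bind ligands outside the cell, whereas Dkk1 and its relatives act on the Lrp co-receptors. In fibroblasts the pathway is known for its part in growth and in matrix production.

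The 4 libraries held 14722848 to 18144640 counts. Of the fibroblast markers, 8 of 8 were found, with a summed level of 13032 to 17342 TPM (transcripts per 1000000, a level per transcript length), and the endothelial list summed to 5.92 to 6.24 TPM. Cartilage markers summed to 1221 to 1597 TPM and skeletal muscle markers to 356 to 531 TPM, the largest sums outside the fibroblast list. Neural markers summed to 108 to 128 TPM, macrophage markers to 47.7 to 57.6 TPM and epithelial markers to 24.7 to 40.6 TPM. No marker of any list was at 0 in every library. In bulk RNA, fewer cells of a type and less RNA per cell cannot be told apart.

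No Wnt gene passed the test of PEDF against control without a term for the experiment, a fit that called 1 of all 19384 genes (0.00516%). The highest levels of each extracellular or receptor class belonged to a few members: Wnt5a among the ligands, Fzd1, Fzd2 and Fzd7 among the Frizzleds, and Dkk3, Sfrp1 and Sfrp2 among the inhibitors. With the experiment as a block, Sfrp2, a secreted Wnt-binding protein, was higher with PEDF by 0.20 on the log2 scale, a call that a correction for gene length ended. The fit with the block called 1 of the 42 Wnt genes tested, beside 3.75% of all genes. Between the MEF preparations edgeR called Wnt5b and Sfrp1, a share near that over all genes, and neither was called over the 4 libraries with no treatment term, a fit that called 11 of all 19384 genes.

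Promoter sequence is shown for the 3 genes to which the treatment results return, namely Sfrp2, Fzd7 and Tcf7l2. Each run is the 250 bases before the RefSeq transcription start (GRCm38.p6, plus strand), 5′ to 3′, at chr3:83766071-83766320, chr1:59481897-59482146 and chr19:55741560-55741809 in that order. Capitals mark a Tcf/Lef motif, searched on both strands and spelled CTTTGAA, or CTTTGAT, or with the last letters changed CTTTGTA or else CTTTGTT.
Sfrp2: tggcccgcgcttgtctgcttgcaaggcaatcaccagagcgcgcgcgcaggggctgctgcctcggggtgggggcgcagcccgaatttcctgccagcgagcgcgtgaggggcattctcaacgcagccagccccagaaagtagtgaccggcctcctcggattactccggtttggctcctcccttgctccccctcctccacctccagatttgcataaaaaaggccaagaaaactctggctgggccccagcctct
Fzd7: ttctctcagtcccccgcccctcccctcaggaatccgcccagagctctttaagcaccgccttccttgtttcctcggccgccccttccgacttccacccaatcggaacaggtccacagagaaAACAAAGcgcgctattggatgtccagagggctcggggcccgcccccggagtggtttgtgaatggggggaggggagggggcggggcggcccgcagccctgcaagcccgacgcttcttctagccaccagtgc
Tcf7l2: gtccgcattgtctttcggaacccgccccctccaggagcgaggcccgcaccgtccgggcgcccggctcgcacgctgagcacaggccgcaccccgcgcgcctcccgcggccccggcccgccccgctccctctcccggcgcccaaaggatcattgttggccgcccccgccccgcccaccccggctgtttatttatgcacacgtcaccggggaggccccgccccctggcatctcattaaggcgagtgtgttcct
The Fzd7 window held one match, on the minus strand at position -130 from the start site. The Sfrp2 window and this Tcf7l2 window held none of these letters, and a second Tcf7l2 start had a match at -14. RefSeq windows were at hand for 35 of the 49 genes, 44 windows in all, and 6 of them held the motif (13.6%), against 14.8% of all 32851 windows. The genes with a match were Dkk1, Fzd7, Lef1, Tcf7l2, Wnt11 and Wnt5b.

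Of the 49 genes, 42 had at least 10 counts in total and entered the tests. Wnt8a, Wnt8b and Dkk4 had no count in any library. At depths where 3 counts correspond to 0.168 to 0.203 counts per 1000000 (CPM), their transcripts were not detectable. Wnt1, Wnt3a, Wnt9b and Sfrp5 had under 10 counts, with 9 for Wnt1, the ligand first known from mammary tumours. For 10 genes, among them Ctnnb1, Sfrp2, Wnt5a, Axin2 and Lef1, exons overlap another annotated gene on the opposite strand, and since the strand setting of the counting is not stated, their counts may include reads of that gene.

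**Figure D1:**
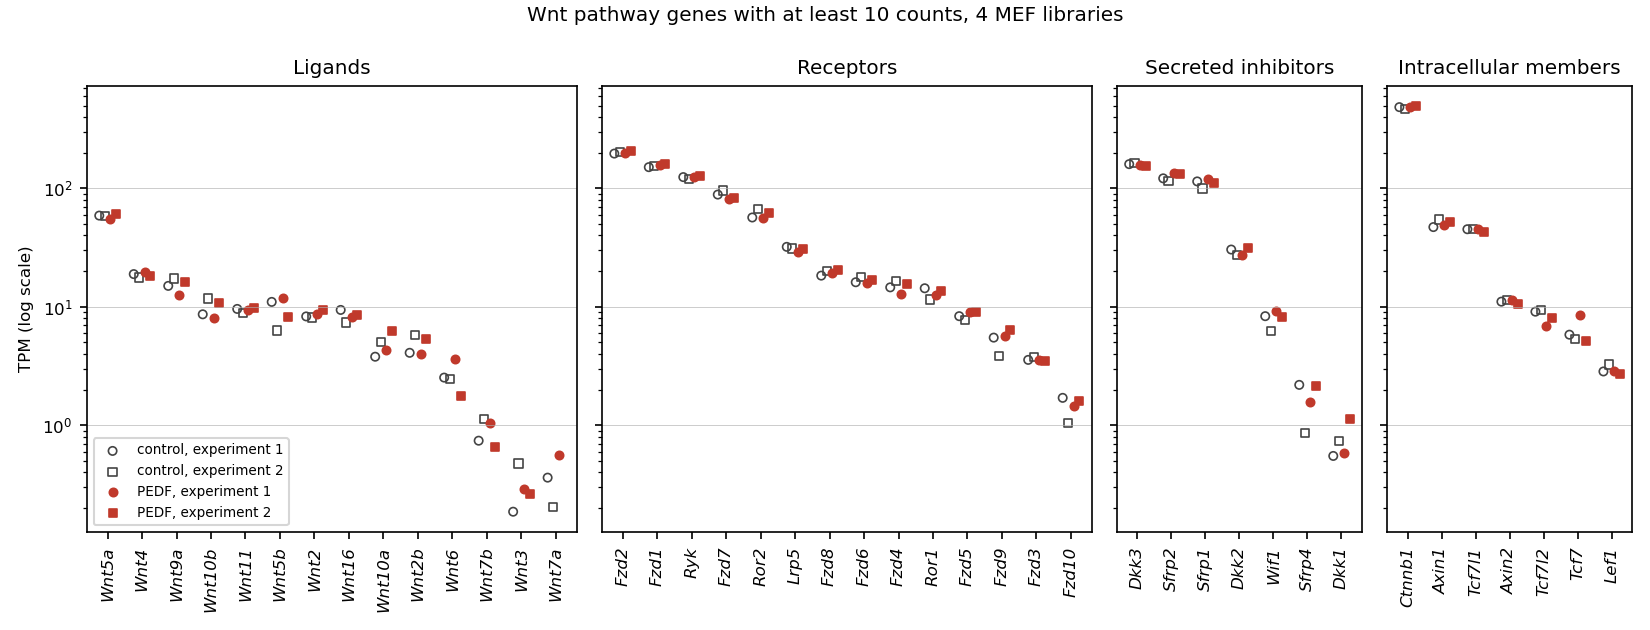
Levels of the 42 genes with at least 10 counts, in TPM on a log axis, by role. Each mark is 1 library (open, control; filled, PEDF; circles, experiment 1; squares, experiment 2), and Wnt7a at 0 in PEDF of experiment 2 is not drawn. Ctnnb1 was highest, at 470 to 493 TPM, and control and PEDF marks lay close together for the abundant genes.

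Among the ligands, Wnt5a was the most abundant, with 58.9 and 58.5 TPM in control and 55.1 and 60.3 TPM in PEDF-treated MEFs (experiments 1 and 2). It made up 37.4% to 38.9% of the summed ligand TPM, which was 151.5 ± 0.041 in control and 151.5 ± 6.13 in PEDF (SD, n = 2). Wnt4, known from kidney and gonad development, followed at 17.7 to 19.8 TPM, and Wnt9a, known from joint formation, at 12.6 to 17.3 TPM. Wnt4 lay above Wnt9a in every library, and both lay below Wnt5a. Wnt10b, Wnt11, Wnt5b, Wnt2 and Wnt16 formed the next tier, between 6.30 and 11.8 TPM. Within it Wnt10b ranged from 7.99 to 11.8 TPM, Wnt11 from 8.83 to 9.76 TPM, Wnt5b from 6.30 to 11.8 TPM, Wnt2 from 8.13 to 9.31 TPM and Wnt16 from 7.37 to 9.41 TPM, and these ranges overlapped. Wnt10a, Wnt2b and Wnt6 had mean levels of 4.86, 4.79 and 2.59 TPM, and Wnt7b, Wnt3 and Wnt7a averaged under 1 TPM.

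The receptors were all detected. Fzd2 was highest, at 197 and 204 TPM in control and 199 and 209 TPM in PEDF, followed by Fzd1 at 151 to 161 TPM. Fzd7 had 88.6 and 96.2 TPM in control and 80.8 and 83.7 TPM in PEDF. These 3 Frizzleds held 86.0% to 86.5% of the summed Frizzled TPM in each library, and their ranges did not overlap. Ryk, a kinase-like Wnt receptor, was at 120 to 127 TPM, Ror2, a receptor tyrosine kinase for Wnt5a, at 56.7 to 67.2 TPM and the related Ror1 at 11.5 to 14.3 TPM. The co-receptor Lrp5 was at 28.9 to 32.1 TPM. Fzd8 was at 18.3 to 20.6 TPM, Fzd6 at 15.9 to 17.9 TPM and Fzd4 at 12.9 to 16.6 TPM. Fzd5 was at 7.74 to 9.11 TPM and Fzd9 at 3.82 to 6.34 TPM, so that these Frizzleds lay far below the leading 3, and Fzd3 and Fzd10 averaged 3.59 and 1.45 TPM.

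Among the secreted inhibitors, Dkk3, the family member that does not act on Lrp co-receptors in the usual way, was at 160 and 164 TPM in control and 157 and 154 TPM in PEDF. Sfrp2 was at 122 and 115 TPM in control and 135 and 132 TPM in PEDF, and Sfrp1 at 114 and 99.7 TPM in control and 119 and 112 TPM in PEDF. Dkk3 was above both Sfrp genes in every library, while the ranges of Sfrp1 and Sfrp2 overlapped. Dkk2 was at 27.5 to 31.5 TPM and Wif1 at 6.22 to 9.30 TPM. Dkk1, the best known Lrp antagonist and a target of the pathway, had 7 and 11 counts in control and 8 and 17 counts in PEDF, a mean level of 0.750 TPM.

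Inside the cell, Ctnnb1 had 485 and 470 TPM in control and 484 and 493 TPM in PEDF, the highest level of all 49 genes in every library. The scaffold Axin1 was at 47.1 to 54.7 TPM and Axin2, a feedback inhibitor induced by the pathway, at 10.5 to 11.4 TPM. Of the Tcf/Lef factors, Tcf7l1, which mostly represses, was at 43.2 to 45.5 TPM and held 71.5% to 73.0% of their summed TPM. Tcf7l2 was at 6.82 to 9.36 TPM, Tcf7 at 5.19 to 8.47 TPM and Lef1 at 2.68 to 3.25 TPM.

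PEDF-treated and control MEFs were compared by edgeR's quasi-likelihood test over all genes, with Benjamini-Hochberg adjustment. None of the 42 genes had an adjusted p under 0.05 (smallest 0.696), against 1 of 19384 genes in all (0.00516%). At an unadjusted p under 0.05 there were 2 genes, Sfrp2 and Tcf7l2, where the background was 6.88%, and DESeq2 gave 0 at either level (background 2.14% unadjusted). The median log2 fold change of the 42 was 0.05, with 24 above 0 (background 50.2%) and 18 below, beside 0.0012 over all genes tested. This median was 0.014 without control replicate 2, 0.028 without PEDF replicate 1, 0.085 without control replicate 1 and 0.025 in limma. By role the medians were 0.0086 for 14 ligands, 0.05 for 14 receptors, 0.20 for 7 secreted inhibitors and -0.0040 for 7 intracellular members. Of the inhibitors 6 of 7 were above 0, the exception being Dkk3 at -0.04 (SE 0.07), but 4 of 7 were higher in both experiments, and Sfrp4, Dkk2 and Dkk3 had opposite signs in them.

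With the experiment as a block, edgeR called 1 of the 42 genes, Sfrp2 (background 3.75%). Sfrp2 had 1371 and 1529 counts in control and 1651 and 1765 in PEDF, or 92.9 and 85.7 CPM against 106 and 99.1 CPM. Both PEDF libraries were above both controls. The difference was 0.20 (SE 0.06, adjusted p 0.0189, edgeR with the block), against 0.20 (SE 0.08, adjusted p 0.696) without it. With a correction for gene length added to the block, Sfrp2 was at 0.13 with an adjusted p of 0.288. DESeq2 with the block gave 0.20 (SE 0.10) and no adjusted p for Sfrp2, and 0 of the 42 genes had an unadjusted p under 0.05 there (background 2.33%). Fibroblast markers summed to 14473 and 17342 TPM in control and 13032 and 14813 TPM in PEDF, and 4 of 8 (Col1a1, Dcn, Pdgfrb and Col1a2) were called with the block. The cartilage markers Col2a1 and Acan were called too, with list sums of 1417 and 1597 TPM in control and 1221 and 1349 TPM in PEDF. Of the skeletal muscle markers Actc1 was called with the block, and that list summed to 356 and 467 TPM in control and 404 and 531 TPM in PEDF. The part of these shifts in the Sfrp2 difference was not tested.

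Sfrp1, the closest relative of Sfrp2 here, had 178 and 151 CPM in control and 190 and 170 CPM in PEDF. It was higher with PEDF inside each experiment, but the groups overlapped, because experiment 2 was lower in both treatments. Its difference was 0.14 (SE 0.05, adjusted p 0.102, edgeR with the block). Without the block, leaving out 1 library moved it between 0.02 (without control replicate 2) and 0.26 (without control replicate 1). Summed, Sfrp1 and Sfrp2 came to 225 ± 14.9 TPM in control and 249 ± 7.27 TPM in PEDF (SD, n = 2).

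Fzd7 had 143 and 151 CPM in control and 134 and 132 CPM in PEDF. Both PEDF libraries were below both controls, and the difference was -0.14 (SE 0.05, adjusted p 0.0972, edgeR with the block). Tcf7l2 had 28.7 and 28.8 CPM in control and 22.1 and 25.0 CPM in PEDF. Its control libraries were nearly equal and both PEDF libraries were lower, at -0.29 (SE 0.10, adjusted p 0.0723, edgeR with the block). Neither gene passed the threshold in any fit.

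**Figure D2:**
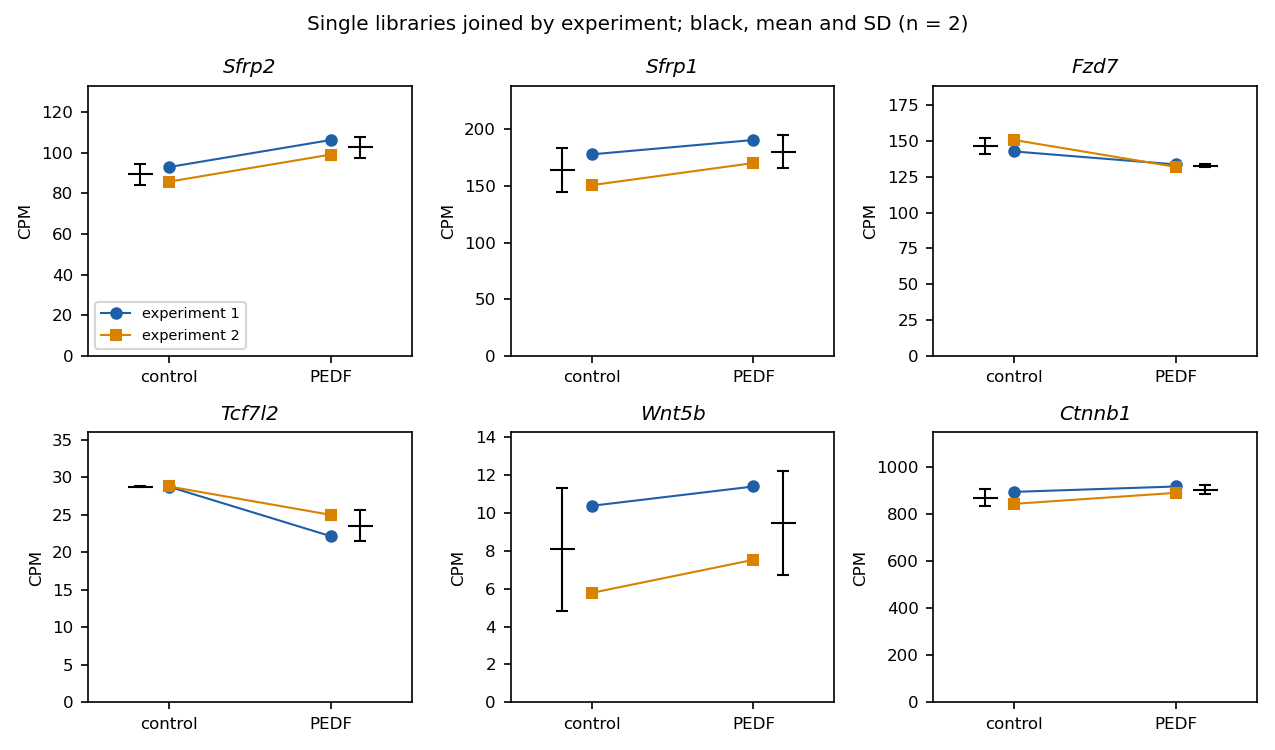
CPM of 6 genes in each library, with lines joining control and PEDF of 1 experiment (blue circles, experiment 1; orange squares, experiment 2) and mean and SD of 2 libraries in black. Sfrp2 and Sfrp1 were higher with PEDF in both experiments, Fzd7 and Tcf7l2 lower, and Wnt5b was separated by experiment more than by treatment.

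Within each experiment, 1 library was set against 1, with an exact 95% interval for counting error only and no p-value. The log2 ratio had the same sign in both experiments for 22 genes, 16 higher (background 30.1%) and 6 lower (background 28.8%) with PEDF. For 3 genes, Sfrp2, Sfrp1 and Ctnnb1, the interval lay above 0 in both experiments (background 3.44%), and for Fzd7 and Tcf7l2 it lay below (background 3.88%). Sfrp2 was at 0.19 (0.09 to 0.30) in experiment 1 and 0.21 (0.11 to 0.31) in experiment 2. Sfrp1 was at 0.10 (0.02 to 0.18) and 0.18 (0.10 to 0.25). Both experiments gave nearly the same size for Sfrp2, and the intervals of Sfrp1 overlapped. Ctnnb1 was at 0.04 (0.0023 to 0.07) and 0.08 (0.05 to 0.11), a narrow interval that reflects its 58379 counts. Fzd7 was at -0.09 (-0.18 to -0.0067) and -0.19 (-0.27 to -0.11), and Tcf7l2 at -0.38 (-0.59 to -0.17) and -0.20 (-0.39 to -0.02). For Ctnnb1 the test across libraries gave 0.06 (SE 0.07, adjusted p 0.897, edgeR), with 0.01 to 0.10 leaving out 1 library.

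**Figure D3:**
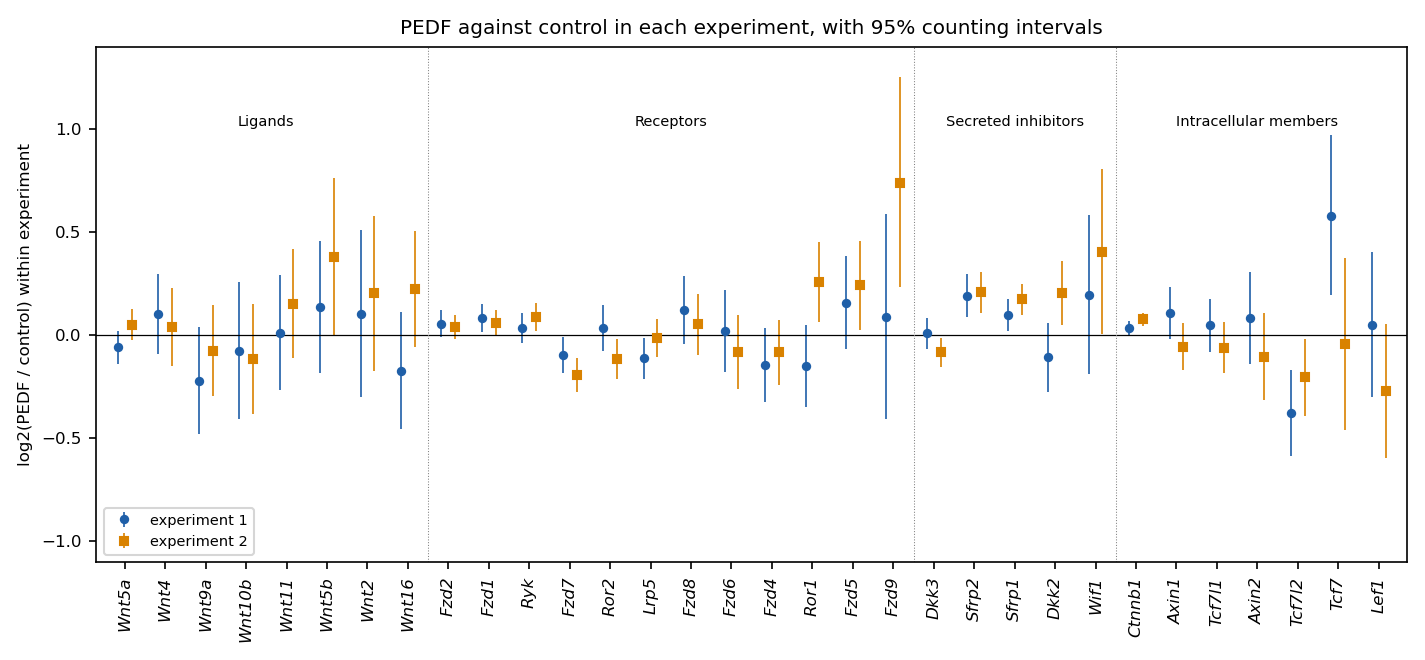
log2 ratio of PEDF to control within experiment 1 (blue circles) and experiment 2 (orange squares) for the genes named by level or test that had at least 100 counts, grouped by role. Bars are exact 95% counting intervals; those of Sfrp2, Sfrp1 and Ctnnb1 lay above 0 in both experiments and those of Fzd7 and Tcf7l2 below.

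In CPM, 7 genes had both PEDF libraries above both controls (background 18.9%) and 3 had both below (background 18.4%). The higher ones were Sfrp2, Wnt2 and the receptors Fzd1, Fzd2, Fzd5, Fzd8 and Fzd9, and the lower ones were Fzd7, Tcf7l2 and Lrp5. These shares, 7 and 3 of 42, were near or below the background. Of the Frizzleds, 6 of 10 had a fold change above 0.

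None of the main ligand Wnt5a, the co-receptor Lrp5 and the readout genes Axin2, Lef1, Tcf7 and Dkk1 passed the test with PEDF, and their intervals differed in width. Wnt5a had 164 and 158 CPM in control and 157 and 164 CPM in PEDF, a difference of -0.0024 (95% interval -0.15 to 0.15). Axin2 had 21.6 and 21.6 CPM in control and 22.9 and 20.1 CPM in PEDF, a difference of -0.0088 (-0.26 to 0.24). The PEDF libraries of both genes lay on either side of the controls. Lef1 had 8.88 and 9.87 CPM in control and 9.20 and 8.19 CPM in PEDF, a difference of -0.11 (-0.47 to 0.24), and Lrp5 was at -0.06 (-0.22 to 0.09). Leaving out 1 library moved Lef1 between -0.20 and -0.03 and Lrp5 between -0.10 and -0.02. Tcf7 had 92 and 100 counts in control and 145 and 97 in PEDF, so that 1 PEDF library stood above the other 3. Its ratio was 0.58 (0.19 to 0.97) in experiment 1 and -0.04 (-0.46 to 0.38) in experiment 2, with counting intervals. Dkk1 was at 0.43 (-0.88 to 1.74), an interval too wide at its counts to show a difference. Of the 33 genes with 400 counts or more, 27 had a 95% interval within 0.5 log2 units of 0 and 15 within 0.3.

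The remaining genes with a mean of at least 5 TPM gave adjusted p-values of 0.758 or more in edgeR without the block. The scarce Fzd9 was at 0.40 (SE 0.25) and came to 0.09 in experiment 1 and 0.74 in experiment 2. Ror1, with 29.3 and 22.9 CPM in control and 26.4 and 27.4 CPM in PEDF, had opposite signs in the experiments, at -0.15 and 0.26. Dkk2 likewise was at -0.11 and 0.21, and Wnt16 at -0.17 and 0.22. In all, 20 of the 42 genes had opposite signs in the experiments, where 7976 of all 19384 genes had no shared sign.

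The 2 MEF preparations were compared with the treatment as a term. Experiment 2 against experiment 1 gave 2 of the 42 genes an adjusted p under 0.05 (background 4.49%) and 10 an unadjusted p under 0.05 (background 14.8%). Wnt5b, a close relative of Wnt5a, had 10.4 and 11.4 CPM in control and PEDF of experiment 1 and 5.77 and 7.52 CPM in experiment 2. Experiment 2 was lower in both treatments, by -0.71 on the log2 scale (SE 0.16, adjusted p 8.7e-04, edgeR). Sfrp1 was lower in experiment 2 as well, at -0.20 (SE 0.05, adjusted p 0.00371, edgeR). With no treatment term edgeR called 0 of the 42, where it called 11 of 19384 genes in all (background 0.0567%), and 5 had an unadjusted p under 0.05 (background 7.67%). DESeq2 called 0 of the 13 genes to which it gave an adjusted p (background 2.64%), with 2 of 42 at an unadjusted p under 0.05 (background 2.70%). It gave Sfrp1 an adjusted p of 0.290 and Wnt5b none. Leaving out 1 library with no treatment term, Sfrp1 was at -0.11 without control replicate 2 and called in no case, and Wnt5b was called without PEDF replicate 2 (-0.92). Of the other 8 genes at an unadjusted p under 0.05, Wnt10b, Wnt2b, Wnt9a, Ror2 and Fzd4 were higher in experiment 2 and Tcf7, Wif1 and Wnt7a lower. Wnt10b was at 0.39 (SE 0.14) and Tcf7 at -0.48 (SE 0.18). Tcf7 was at -0.17 without PEDF replicate 1 and -0.75 without control replicate 1, both with no treatment term. Epithelial markers summed to 40.6 and 38.8 TPM in experiment 1 and 24.7 and 28.0 TPM in experiment 2, and skeletal muscle markers to 356 and 404 TPM against 467 and 531 TPM. Their part in the differences of Wnt5b and Sfrp1 was not tested.

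**Figure D4:**
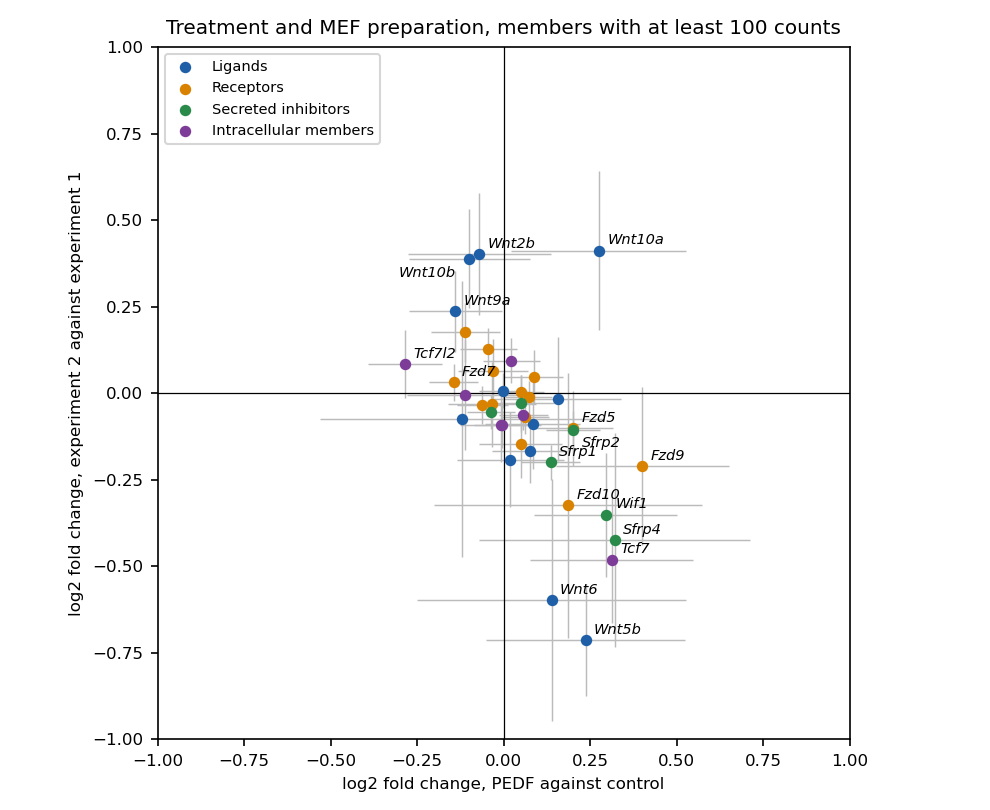
log2 fold change of PEDF against control (x axis) and of experiment 2 against experiment 1 (y axis) for the genes with at least 100 counts, coloured by role, with standard errors in grey. The x values come from edgeR without the block and the y values from edgeR with the treatment as a term. The standard errors of the axes thus rest on different spreads. Wnt5b lay lowest, at -0.71 between experiments, while Tcf7l2 lay farthest left, at -0.29 with PEDF.

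The rest of the pathway was read from a list of 64 other Wnt pathway genes, 61 of them tested. Without the block 0 were called by edgeR, 3 had an unadjusted p under 0.05 (background 6.88%), all higher with PEDF (Pygo1, Nkd1 and Rspo1), and the median log2 fold change was -0.02. At an unadjusted p under 0.05 with the block, 3 were higher and 7 lower, beside 1392 higher and 1430 lower of all 19384 genes. In CPM, 10 had both PEDF libraries above both controls (background 18.9%) and 14 both below (background 18.4%). With the block 1 of 61 was called, a share below the background of 3.75%. This was Nkd1, a feedback inhibitor of Dishevelled, with 247 and 264 counts in control and 393 and 298 in PEDF, at 0.39 (SE 0.12, adjusted p 0.0280, edgeR with the block). Most of its difference came from experiment 1, where PEDF was at 25.3 CPM against 16.7 CPM in control, and experiment 2 had 16.7 against 14.8 CPM. Without PEDF replicate 1 the difference was 0.09, and without PEDF replicate 2 it was 0.68 (both without the block). With the length correction added to the block 2 of 61 were called (background 2.16%), Nkd1 and Gpc4, a cell-surface proteoglycan. Gpc4 was lower with PEDF, at -0.17 (SE 0.05, adjusted p 0.0171, edgeR), against -0.11 (SE 0.05, adjusted p 0.179) with the block alone.

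A list of 39 known Wnt target genes held 35 tested genes, of which 4 also belong to the 49. Nkd1, Nkd2, Notum, Rnf43, Znrf3 and Lgr5 are on the pathway list too. Without the block 0 were called and 5 had an unadjusted p under 0.05 (background 6.88%), 3 higher and 2 lower, with a median of -0.03. With the block 4 were called, 2 in each direction, beside a background of 3.75% of all genes. DESeq2 with the block gave 0 of the 35 an unadjusted p under 0.05, and likewise 0 of the 61 pathway genes (background 2.33%). Nkd1 (above) and Id2, an inhibitor of bHLH factors, rose, Id2 by 0.23 (SE 0.06, adjusted p 0.0159). The Id2 call was lost with the length correction added (0.17, adjusted p 0.178, edgeR), while Ccn2, Myc and Nkd1 were called there. Ccn2, a matrix-associated growth regulator, and Myc, a growth-promoting transcription factor, fell by 0.17 (SE 0.04, adjusted p 0.00343) and 0.26 (SE 0.07, adjusted p 0.0107), all in edgeR with the block. Ccn2 had 773 and 769 CPM in control and 614 and 760 CPM in PEDF, so that the difference lay mainly in experiment 1. Myc had 53.1 and 64.4 CPM in control and 45.8 and 52.2 CPM in PEDF, lower in both experiments. Without the block, Id2 was at 0.08 without control replicate 2, 0.15 without PEDF replicate 1 and 0.38 without control replicate 1. Ccn2 was at -0.02 without PEDF replicate 1 and -0.33 without PEDF replicate 2, and Myc at -0.11 without control replicate 2, -0.17 without PEDF replicate 1 and -0.39 without control replicate 1. The target genes called with the block thus moved in both directions.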

How the data were processed

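RNA was measured in 4 MEF libraries (2 control, 2 PEDF). Per the labels and the study's methods, polyadenylated RNA was made into directional libraries, and the submitters' processing notes name FastQC 0.11.7, Trimmomatic 0.38, HISAT2 2.1.0, SAMtools 1.9, featureCounts 1.6.3 and mm10. The annotation, strand setting and TPM conversion are not given in the sources used here. The authors deposited raw counts per gene and TPM values, both used as deposited. Total counts were 14722848 to 18144640, and intervals and floors cover counting error only.

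Counts were tested with edgeR 4.0.16 (R 4.3.3; TMM factors 0.983 to 1.012, robust quasi-likelihood fit, 19384 genes with at least 10 counts in total, Benjamini-Hochberg adjustment over all). Standard errors were the log2 fold change over the square root of F. DESeq2 1.42.0 and limma 3.58.1 on log2(TPM + 1) were alternatives, as were a replicate block, a length correction and leaving out each library. Experiment numbers pair the samples by label, since embryos were shared; the changes between experiments in control and in PEDF correlated across 10722 genes with r = 0.423. Exon lengths and overlaps came from GENCODE M21 (GRCm38). P-values of PEDF without the block rest on the spread between the 2 libraries of a treatment, which includes the difference between experiments. With the block they rest on the spread left after the experiment and treatment terms. Both cover these 4 libraries only. Scripts were tested on simulated data.

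Values in every library, or their range over the 4 libraries, were given for those of the 49 genes with a mean of at least 5 TPM, with an unadjusted p under 0.05 without the block or an adjusted p under 0.05 with it or between experiments, and for Ctnnb1, Lrp5, Axin2, Lef1, Tcf7, Wnt5a and Dkk1. Of the pathway and target lists, genes called without or with the block were named; the genes at an unadjusted p between experiments and the pathway genes Pygo1, Rspo1 and Gpc4 were named after their values were seen. The genes and lists were chosen with earlier results of these data known.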

Additional observations from a re-analysis of the deposited data

How the results depend on the processing

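With the replicate block in edgeR, 1 Wnt gene (Sfrp2), 1 other pathway gene (Nkd1) and 4 target genes were called with PEDF, beside 3.75% of all genes. Nkd1 is on both lists and was counted in each. Without the block the counts were 0, 0 and 0, beside 0.00516% of all genes. With the block and a length correction they were 0, 2 and 3, beside 2.16% of all genes. DESeq2 with the block called 0, 0 and 0, and 118 of the 1721 genes to which it gave an adjusted p. These included only 8 of 42, 11 of 61 and 7 of 35 genes of the 3 sets. Of the genes called in edgeR, Ccn2 alone had an adjusted p in DESeq2 with the block (0.639). Leaving out 1 library gave 0 to 1 target genes (Myc, without control replicate 1). Between experiments 2 Wnt genes were called, 0 by DESeq2 (13 of 42 with an adjusted p), 0 with no treatment term, and 0 to 1 leaving out 1 library, an alternative chosen after seeing the data because 3 libraries leave no residual degree of freedom with that term. The median log2 fold change of the Wnt genes with PEDF (0.05) was 0.036 with no filter, 0.037 with the block and length correction, 0.025 in limma and 0.014 to 0.085 leaving out 1 library. With the block and length correction Axin2 (0.0021), Wnt5a (0.045) and Lrp5 (0.0068) changed sign with PEDF, and with length correction Wnt2 (0.035) and Wnt5a (-0.030) between experiments. Leaving out 1 library changed the sign of 16 named genes with PEDF, with ranges of Axin1 -0.062 to 0.11, Axin2 -0.10 to 0.084, Tcf7 -0.12 to 0.66, Tcf7l1 -0.078 to 0.068, Wnt10b -0.30 to 0.12, Wnt16 -0.17 to 0.22, Wnt4 -0.025 to 0.17, Wnt5a -0.033 to 0.027, Wnt5b -0.14 to 0.70, Wnt9a -0.31 to 0.0036, Fzd6 -0.086 to 0.026, Ror1 -0.12 to 0.23, Ror2 -0.14 to 0.062, Dkk1 -0.091 to 0.79, Dkk2 -0.044 to 0.15, Dkk3 -0.087 to 0.014, and of 12 between experiments, with ranges of Lef1 -0.14 to 0.12, Tcf7l2 -0.097 to 0.28, Wnt2 -0.13 to 0.082, Wnt5a -0.024 to 0.036, Fzd1 -0.055 to 0.030, Fzd2 -0.023 to 0.033, Fzd5 -0.23 to 0.015, Fzd7 -0.067 to 0.12, Fzd8 -0.013 to 0.11, Fzd9 -0.61 to 0.13, Lrp5 -0.090 to 0.022, Dkk2 -0.14 to 0.070. None of these genes was called in its comparison, and the cause was not tested. Of the values of named genes under the alternatives, 411 of PEDF kept their direction and did not cross the threshold, 24 reversed and 9 became called. Between experiments 297 kept their direction and did not cross it, 22 reversed and 10 were no longer called. Values without an adjusted p in DESeq2 have no side of the threshold, so for them only the direction could be kept. With 2 libraries a side, a lone library in these fits is assumed to vary like the others, and genes with few counts, such as Dkk1, could not show a difference of the size seen for Sfrp2.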
